A study of Rattus norvegicus with 48 samples.

Results

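The late progression of steatohepatitis was followed in 16 rats on the choline-deficient diet, 8 killed after 8 weeks and 8 killed after 12 weeks, out of 48 animals in the series. They were selected by diet and week in the sample names, and the comparison was proposed with earlier results known, among them that both groups have a similar gene length trend. All 48 animals were male rats of the Wistar stock RjHan:WI, received at an age of 6 weeks and housed pairwise, and poly(A) RNA of the liver was sequenced. The CDAA groups received 1% cholesterol in an L-amino acid-defined diet without choline supplement, spelled CDDA in the sample names, which was also lower in methionine (0.17%) than the diet of the controls (0.4%) and held more of its energy as fat and less as carbohydrate. The control groups received an amino acid-defined diet supplemented with choline (CSAA), and 8 CSAA animals at each of week 8 and week 12 gave the change over the same weeks on the control diet. Each animal was sampled once, so a step from week 8 to week 12 compares different rats, and cages are not named in the labels.

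Choline is needed to make phosphatidylcholine, which coats the lipoprotein particles that carry fat out of the liver. When it is short, fat stays in the hepatocytes, cells are injured, macrophages and other leukocytes enter, and hepatic stellate cells turn into myofibroblasts that lay down collagen. In a whole-liver RNA sample, genes of the hepatocytes are therefore abundant in healthy tissue, while genes of infiltrating and matrix-producing cells can be scarce there. The tables list genes by Ensembl identifier without names, so cell type markers and pathways could not be read, the labelled tissue could not be checked against marker genes, and genes are grouped below by their level in the control liver and by their response to the diet at week 4. From bulk RNA, more cells of a type and more RNA per cell cannot be told apart.

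Depth was somewhat higher at week 12, with overlapping ranges. Mean reads on genes were 16825000 ± 1996000 at week 8 and 19171600 ± 1769000 at week 12 on CDAA (SD, 8 animals each). Between 14461769 and 20231354 reads per animal lay on genes at week 8 on CDAA and between 16205180 and 21193513 at week 12. Levels are given as CPM (counts per 1000000 reads on genes, scaled by the TMM factors of edgeR), and log2 CPM values carry a prior count of 2.

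The week 12 livers were not equally distinct from each other in their profiles. Differences between 2 animals were measured as a chi-square per gene, which is about 1 where 2 libraries differ by sampling alone. The 6 pairs among animals 1105, 1106, 1107 and 1108 gave values from 3.40 to 9.68, below each of the other 22 pairs of week 12 (11.3 to 41.0) and each of the 28 pairs of week 8 (11.8 to 57.8). These 4 livers differed by more than sampling noise but by less than any other pair on CDAA at these weeks. The SD of log2 CPM between animals, as a median over all genes tested, was 0.106 in these 4 animals, 0.169 in animals 1101 to 1104 and 0.179 in the 8 animals of week 8. Animal 1102 had the lowest level at week 12 of the genes that rose. The main counts are given with and without these animals, and what sets them apart was not tested.

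**Figure D1:**
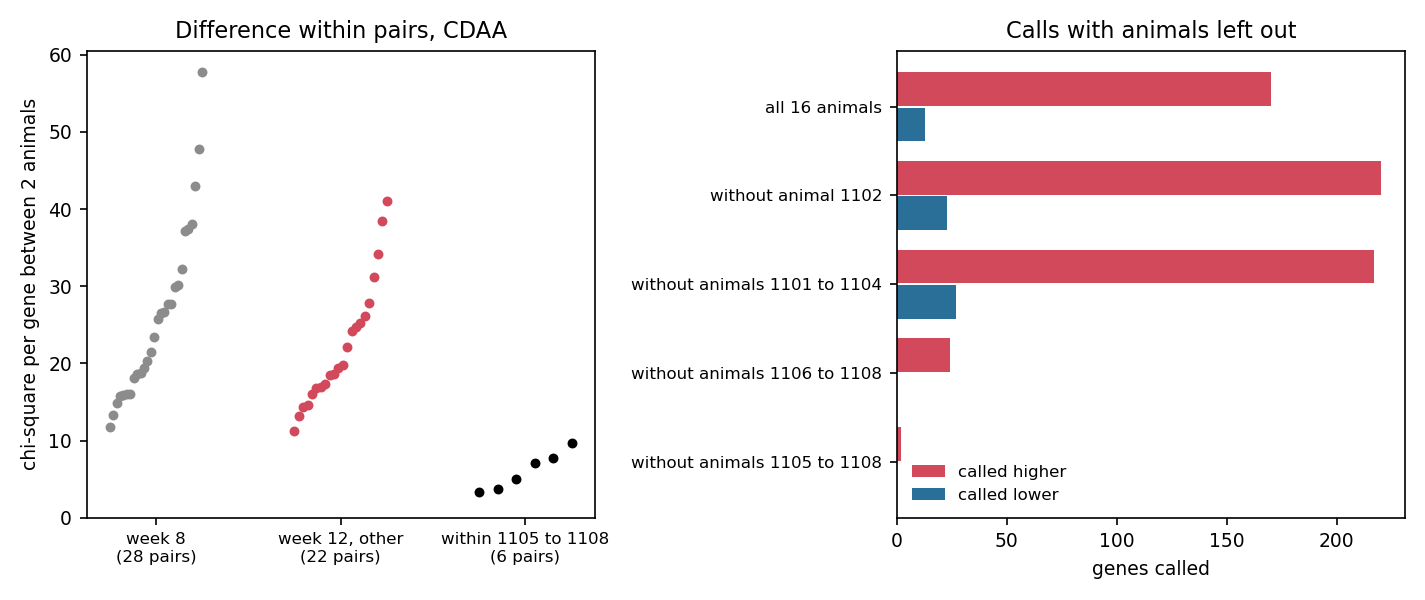
Left, chi-square per gene between 2 animals of the same CDAA group, 1 point per pair, with the pairs among animals 1105 to 1108 in black. Right, numbers of genes called higher (red) and lower (blue) at week 12 against week 8 with all 16 animals and with animals left out; the 170 and 13 calls become 2 and 0 without animals 1105 to 1108.

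Between week 8 and week 12 on CDAA, more genes were called higher than lower and few genes fell strongly. These calls depended on animals 1105 to 1108. With an adj. p value under 0.01 and an absolute log2 FC of at least 1 (edgeR's quasi-likelihood test, Benjamini-Hochberg adjusted), 170 of 12756 genes tested were higher at week 12 (1.33%) and 13 were lower (0.102%). The rises had a median log2 FC of 1.56, a 2.95-fold change, and ranged from 1.02 to 4.96, with 22 genes at 2 or more. The falls had a median of -1.43 and ranged from -3.47 to -1.02. The median of all genes tested was -0.0017 with TMM factors, which centre the bulk of genes, and 0.085 with library size alone. By number of calls, the step was small next to the diet effects. By the same thresholds, 3856 genes (30.2%) differed between the diets at week 8 and 3917 (30.7%) at week 12. These counts include a gene length trend in the diet effects. Among 12035 of the genes, the median diet effect (log2 FC) at week 8 was -0.581 in the shortest of 4 length groups and 0.363 in the longest. At week 12 these medians were -0.357 and 0.128. Just outside the fold threshold, the largest rise with an adj. p value under 0.01 had a log2 FC of 0.98 and the largest fall one of -0.98. Of the 170 rises, 112 passed the expression filter only through CDAA week 8 or week 12, so their scarcity in the control liver follows from the filter. Among the other 58 rises, 58.6% lay under 1 CPM on CSAA at week 4, against 6.30% of all genes that passed through another group. Without animals 1105 to 1108, 2 genes were called higher and 0 lower.

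**Figure D2:**
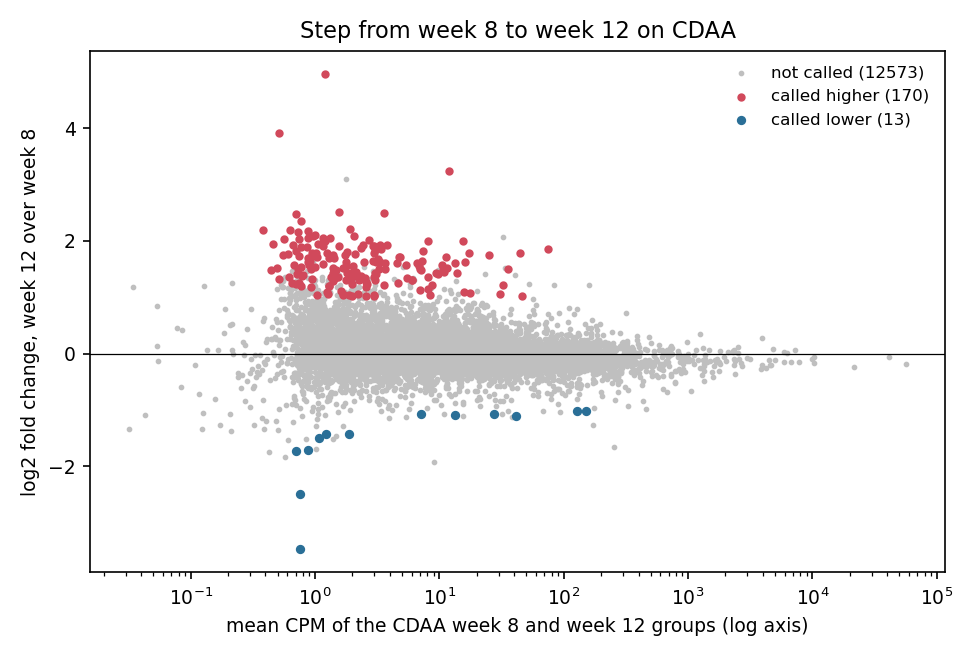
Log2 fold change of week 12 over week 8 on CDAA against the mean CPM of both groups (log axis), 1 point per gene tested. The 170 genes called higher (red) lie mostly at low levels and the 13 called lower (blue) are spread over levels.

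The number of calls rested on animals 1105 to 1108. Without them, 2 genes were called higher and 0 lower, with 1171 genes at an unadjusted p under 0.05 in the same edgeR fit, against 2535 with all 16 animals. Keeping animal 1105 of the 4 gave 24 higher and 0 lower. Without animals 1101 to 1104 in their place, with as many animals left, 217 were higher and 27 lower. Without animal 1102 alone, 220 were higher and 23 lower. The sizes of the changes moved less than the calls. The 170 genes had a median log2 FC of 1.23 without animals 1105 to 1108 and 1.83 without animals 1101 to 1104, and all 170 stayed above 0 in both, although animals kept in both fits had served to choose these genes.

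The low level of the rising genes also bears on their number. The expression filter asked for at least 1 CPM, taken without TMM factors, in 5 of 8 animals of a group. On the TMM-scaled levels given here, this bar lies lower on CDAA than on CSAA. Mean TMM factors were 1.29 and 1.37 on CDAA and 0.848 and 0.777 on CSAA at weeks 8 and 12. Of the 170 genes, 112 passed this filter only because of CDAA week 8 or week 12, and 69 only because of week 12. The remaining 58 passed through another group. Among the 12035 genes that did so, 58 rises (0.482%) and 13 falls (0.108%) were called, and the 58 rises had a median log2 FC of 1.47. When the filter was set on the other groups before the fit, 51 rises and 12 falls were called. In reads, the median of the 170 genes went from 22.3 per animal at week 8 to 74.2 at week 12, and 82 of them had a mean under 1 CPM at week 8.

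Between animals, the 170 genes separated week 12 from week 8 with an overlap through a single pair. Their mean log2 CPM per animal ranged from -0.11 to 0.92 (median 0.23) at week 8 and from 0.73 to 2.20 (median 2.03) at week 12, and the animals of overlap were 708 at week 8 (0.92) and 1102 at week 12 (0.73). These values chose the genes and are a description. Animals 1105 to 1108 lay between 2.01 and 2.19, animal 1101 at 2.20, animal 1104 at 1.49 and animal 1103 at 1.21. A level above the highest week 8 animal was reached by 166 to 169 of the 170 genes in animals 1105 to 1108 and by 167 in animal 1101, but by 136 in animal 1104, 107 in animal 1103 and 38 in animal 1102. High week 12 values were thus found in 5 animals of 8, and animals 1102, 1103 and 1104 lay lower. For single genes, the 8 and 8 animals did not overlap in 27 of the 170 rises and in 1 of the 13 falls, where 0.588% of all genes tested lay higher without overlap and 0.792% lower.

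The levels of these genes in the other groups were lower, which the filter sets in part, since 112 of the 170 passed it only through CDAA week 8 or week 12. Their median level, over the means of the 170 genes, was 0.249 CPM on CSAA at week 4, 0.355 CPM at week 8 and 0.343 CPM at week 12. The CDAA groups had 0.574 CPM at week 4, then 1.03 CPM at week 8 and finally 2.81 CPM at week 12. The CDAA week 4 mean was above all 3 CSAA means in 118 of the 170 genes and below the CDAA week 8 mean in 149. For the 58 genes that passed through another group, the medians were 0.822, 1.26 and 1.36 CPM on CSAA and 1.92, 3.52 and 10.8 CPM on CDAA at weeks 4, 8 and 12. The CDAA week 4 mean of these 58 was above all 3 CSAA means in 40 and below the CDAA week 8 mean in 47. At week 4, 77 of the 170 were already called higher by the diet and 1 lower, where 15.7% and 4.27% of all genes tested were. On CDAA week 4, mean log2 CPM over the genes ranged from -1.19 to -0.18, with animal 303 the lowest, and in the CSAA groups from -1.67 to 0.09. The 2 highest CSAA values belonged to animal 504 of week 8 (0.09) and animal 908 of week 12 (-0.07), which lay among the CDAA animals of week 8, while the other CSAA animals lay below every CDAA animal except animal 303.

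**Figure D3:**
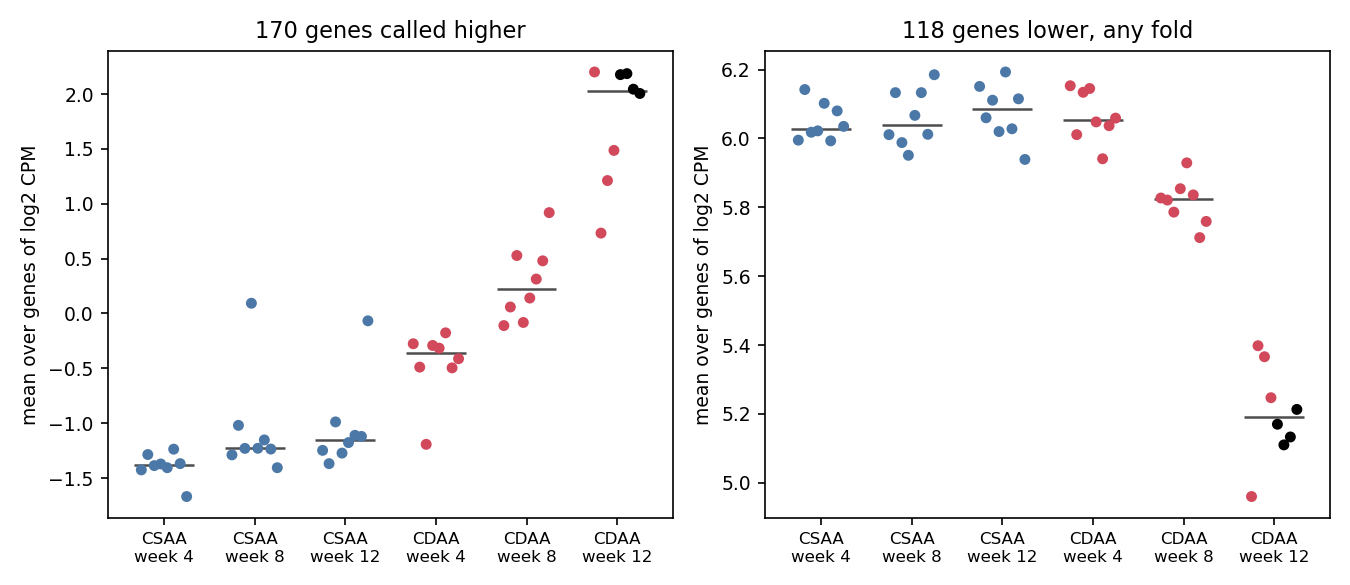
Mean log2 CPM per animal over the 170 genes called higher at week 12 (left) and over the 118 genes lower at an adj. p value under 0.01 with no minimum fold (right), 8 animals per group, lines at medians, animals 1105 to 1108 in black. Levels climb over CDAA weeks on the left, and on the right CDAA week 4 lies with CSAA (5.94 to 6.19) and week 12 between 4.96 and 5.40.

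Most falls were small. With no minimum fold, 236 genes were higher (1.85%) and 118 lower (0.925%) at week 12, with a median log2 FC of 1.37 and -0.53. The median level of the 118 genes was 97.9, 94.6 and 112 CPM on CSAA at weeks 4, 8 and 12 and 83.3, 74.9 and 56.6 CPM on CDAA. Mean log2 CPM over these genes overlapped between the diets at week 4, with 5.94 to 6.15 on CDAA and 5.99 to 6.14 on CSAA. CDAA week 12 had the lowest mean of the 6 groups in 96 of 118. Mean log2 CPM over the 118 genes ranged from 5.71 to 5.93 in the animals of week 8 and from 4.96 (animal 1101) to 5.40 (animal 1102) at week 12. All week 12 animals lay below all week 8 animals, a separation that the choice of the genes fixes. Without animals 1105 to 1108, 0 genes were lower and 2 higher at this threshold (edgeR), and 11 were lower when animal 1105 was kept.

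The 13 genes that fell by more had another course. Their median level was 7.57, 7.25 and 5.44 CPM on CSAA and 3.08, 2.76 and 1.02 CPM on CDAA at weeks 4, 8 and 12. In 10 of the 13 the CDAA week 4 mean was above all 3 CSAA means. At week 4, 5 were called higher by the diet and 1 lower (15.7% and 4.27% of all genes tested). At week 12, 0 were called higher by the diet and 6 lower (19.4% and 11.3% of all genes tested), and CDAA week 12 had the lowest mean of the 6 groups in 9. The count and the medians at week 4 point in opposite directions here, since the medians over the 13 genes come from different genes in each group. Mean log2 CPM over the same 13 genes averaged 3.25 (2.63 to 3.50 between animals) on CDAA and 2.69 (2.49 to 2.98) on CSAA at week 4. At weeks 8 and 12 this mean was 2.79 and 1.47 on CDAA and 2.82 and 2.63 on CSAA. The CDAA values of weeks 8 and 12 chose the genes and are a description.

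Genes grouped by their level on CSAA at week 4, a group that takes no part in the step, moved in opposite directions at both ends of the scale. Counted over the 12035 genes that pass the filter through another group, the 758 genes under 1 CPM in the control liver had a median log2 FC of 0.20 from week 8 to week 12, and 34 (4.49%) were called higher and 4 lower. The 4155 genes from 1 to 10 CPM had a median of 0.057 with 22 higher and 3 lower. The 5734 genes from 10 to 100 CPM had a median of -0.026 with 2 higher and 4 lower. The 1388 genes at 100 CPM or more had a median of -0.12 with 0 higher and 2 lower, and 22.7% of them had a log2 FC above 0. With no minimum fold, 58 of these abundant genes were lower (4.18%, against 0.98% of the 12035) and 2 higher, so they made up 49.2% of the 118 falls and 10.9% of all genes tested. With the minimum fold, the 2 abundant genes called lower on CDAA were 0.144% of them, against 0.108% of the 12035. In the step on CSAA, with the minimum fold, 66 of the abundant genes were lower (4.76%, against 2.17% of the 12035) and 13 higher, while their median log2 FC was 0.067. Genes under 1 CPM made up 58.6% of the 58 rises in this population and 6.30% of its genes.

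Per animal, the median of the scarce genes, taken against the mean of week 8, was between 0.27 and 0.37 in animals 1105 to 1108, at 0.28 in animal 1101, at 0.12 and 0.13 in animals 1103 and 1104 and at -0.12 in animal 1102. At week 8 it ranged from -0.13 to 0.12. Hence 6 animals of week 12 lay above all of week 8 and animals 1102 and 1103 within its range. The median of the abundant genes lay between -0.19 and -0.10 in 7 animals of week 12, below all of week 8 (-0.058 to 0.10), and at 0.030 in animal 1102. Without animals 1105 to 1108 the medians of both groups of genes became 0.096 and -0.090, with the same signs. With library size alone in place of TMM factors, which moves the median of all genes by 0.085, the abundant genes had a median of -0.032.

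Genes were also grouped by their response to the diet at week 4, which shares the CSAA animals of week 4 with the grouping by level, and 566 of the 758 scarce genes were also raised by the diet at week 4. The 1719 genes raised by the diet at week 4 had a median log2 FC of 0.11 from week 8 to week 12, with 38 called higher (2.21%) and 5 lower. The 539 genes lowered at week 4 had a median of -0.099, with 1 higher and 1 lower. The 9777 genes not called at week 4 had a median of -0.017, with 19 higher and 7 lower. The median of the lowered genes was -0.041 without animal 704, -0.0070 with library size alone and -0.0031 with RPKM. Genes not called at week 4 made up 81.4% of the 118 falls with no minimum fold and 81.2% of the 12035 genes. Within the genes raised at week 4, the step again followed the control level, with a median of 0.20 in 566 genes under 1 CPM, 0.097 in 905 genes from 1 to 10 CPM, 0.060 in 229 genes from 10 to 100 CPM and -0.14 in 19 genes at 100 CPM or more. Animal ranges overlapped for both groups. For raised genes the medians per animal were -0.13 to 0.11 at week 8 and -0.15 (animal 1102) to 0.26 at week 12, and animals 1105 to 1108 held the 4 highest. Without these 4 animals the median of the raised genes was 0.027.

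**Figure D4:**
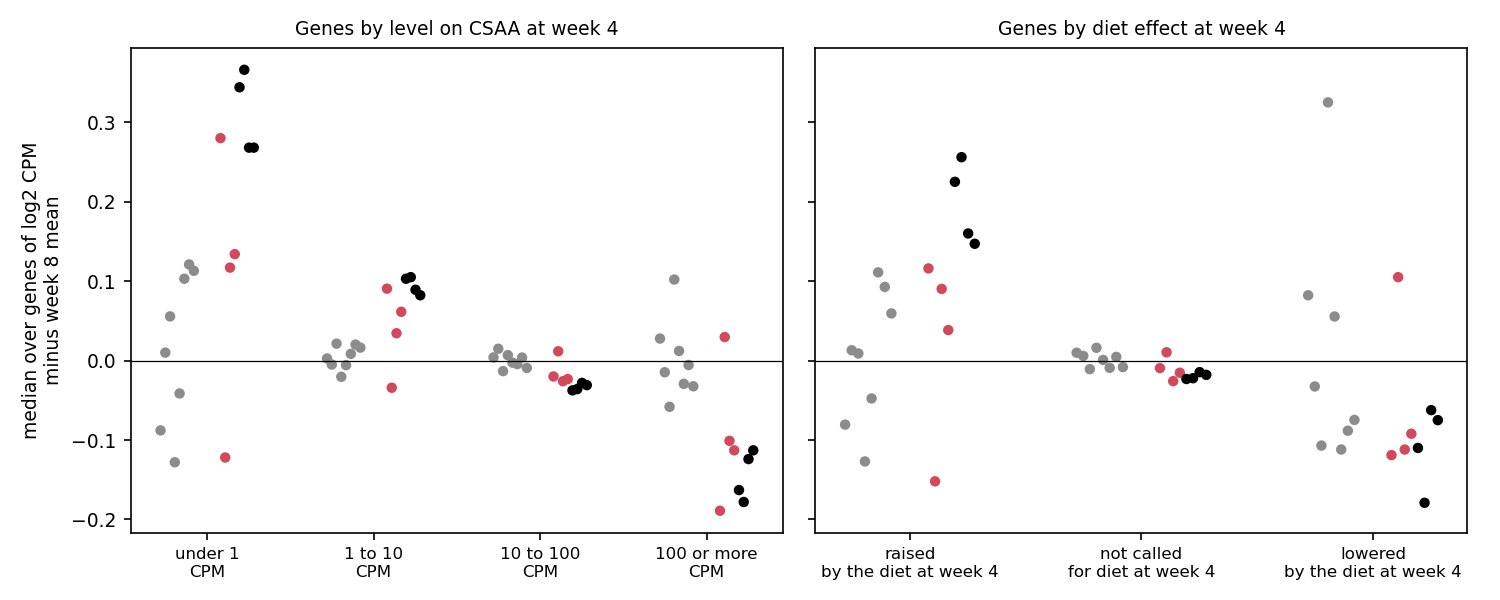
Median over genes of log2 CPM minus the week 8 mean, 1 point per animal, for genes grouped by level on CSAA at week 4 (left) and by the diet effect at week 4 (right), with week 8 in grey, week 12 in red and animals 1105 to 1108 in black. Scarce genes lie up to 0.37 above week 8 and abundant genes down to -0.19, while animal 1102 (0.030 for the abundant genes) goes the other way.

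The step on CDAA had little trend with gene length, unlike the step on CSAA. The median log2 FC in 4 equal groups by gene length, from the shortest to the longest genes tested, was -0.0054, -0.011, -0.0090 and 0.020 on CDAA and -0.25, 0.017, 0.14 and 0.22 on CSAA. The slope of log2 CPM on log2 gene length on CDAA was 0.214 ± 0.018 at week 8 and 0.233 ± 0.031 at week 12 (SD, 8 animals each), which is a description, since the likeness of the trends was known when the comparison was chosen. With the trend removed, 172 genes were higher and 15 lower. The rises were more frequent in the longest group (56 of 3189 genes, 1.76%) than in the shortest group (34 of 3189, 1.07%).

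More genes were detected in the livers of week 12, and the difference at a common depth rested in part on animals 1105 to 1108. The number of genes with at least 1 read, brought to a common depth of 14461769 reads, ranged from 16031 to 16234 (median 16115) at week 8 and from 16023 to 16583 (median 16457) at week 12, a mean difference of 267.1 genes (two-sided exact permutation test, n = 8 and 8, p = 0.00482, adj. p value 0.012 over 5 measures). Without animals 1105 to 1108 the difference was 157.7 genes (exact permutation test, 8 against 4 animals, p = 0.0747). Without that correction for depth it was 409.5 (exact permutation test, p = 0.00249, adj. p value 0.012). The 100 genes most abundant on CSAA at week 4 took 43.4% ± 1.63 of the reads at week 8 and 42.2% ± 1.23 at week 12 (SD, 8 animals each), and a difference was not shown (exact permutation test, p = 0.121, adj. p value 0.151). On CSAA they took 50.3% and 53.2% at these weeks. The TMM factor was 1.29 ± 0.052 at week 8 and 1.37 ± 0.052 at week 12 (SD, 8 animals each, exact permutation test, p = 0.00761, adj. p value 0.0127). Without animals 1105 to 1108 the differences were 285.0 genes without the correction for depth (exact permutation test, p = 0.0444), -0.71 percentage points of reads (p = 0.471) and 0.065 in the TMM factor (p = 0.099, all exact permutation tests).

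The control diet gave another picture over the same 4 weeks. From week 8 to week 12 on CSAA, 91 genes were higher (0.713%) and 264 lower (2.07%). Rises made up 25.6% of calls there against 92.9% on CDAA, where 112 of the 170 rises passed the expression filter only through CDAA week 8 or week 12. Over the 12035 genes that pass it through another group, 85 were higher and 261 lower on CSAA, and 58 and 13 on CDAA. Of the 264 falls, 216 were in the shortest of the 4 length groups. With the gene length trend removed, 88 were higher and 126 lower (41.1% rises), and with library size alone 50 were higher and 387 lower (11.4% rises). With no minimum fold, 3864 genes passed on CSAA (30.3%, of which 17.6% higher and 12.7% lower) and 354 on CDAA (2.78%). Of the 170 rises on CDAA, 0 were called in the CSAA step by edgeR, 0 by limma-voom and 1 by DESeq2. In edgeR, 14 of them (8.24%) had an unadjusted p under 0.05 in that step, against 47.7% of all genes tested. In 142 of the 170 no CSAA group passed the expression filter, so most were too scarce there for a change to be well tested. Their median log2 FC on CSAA was -0.048, with 77 of 170 above 0. Of the 13 falls on CDAA, 1 was also called lower on CSAA.

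The difference between both steps was tested as a diet by week interaction. The step was higher on CDAA than on CSAA in 372 genes (2.92%) and lower in 139 (1.09%). Of the 170 rises, 54 (31.8%) passed this test, and of the 13 falls 5 (38.5%) passed. The interaction contains the CDAA step that chose these genes, so its sign and these counts are a description. For the other 116 rises a difference from the change on CSAA was not shown. Of the 372 genes, 196 were called lower in the step on CSAA, 54 were called higher in the step on CDAA and 122 were called in neither. Of the 139 genes, 51 were called higher on CSAA, 5 lower on CDAA and 83 in neither. Without animals 1102, 504 and 908, 548 were higher and 151 lower, without animals 1106 to 1108 263 and 96, without animals 1105 to 1108 194 and 76, and without animals 1101 to 1104 466 and 220. The split between directions depended on scaling, with 72.8% higher as reported, 83.1% with RLE factors and 94.9% with library size alone, and with the gene length trend removed 222 were higher and 119 lower (65.1% higher). Of the 118 falls with no minimum fold, also chosen by the CDAA step, 70 (59.3%) had a lower step on CDAA than on CSAA at an adj. p value under 0.01 (12.6% of all genes tested). In the step on CSAA, 24 of the 118 were higher and 14 lower at that threshold, where 17.6% and 12.7% of all genes tested were.

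Single genes show how these steps were built. ENSRNOG00000012471 had the largest rise among the 49 called genes with a mean of at least 5 CPM at week 12. It ranged from 0.611 to 5.43 CPM (median 2.04) at week 8 and from 4.17 to 42.9 CPM (median 20.8) at week 12. The ranges overlapped through animal 707 at week 8 and animals 1102 and 1103 at week 12, and the highest 2 values belonged to animals 1105 and 1106. The log2 FC was 3.24 ± 0.41 (SE) with an adj. p value of 1.68e-06 in edgeR's quasi-likelihood test, and 2.28 without animals 1105 to 1108 (edgeR, adj. p value 0.0107). On CDAA at week 4 its mean was 1.08 ± 0.428 CPM (SD, n = 8), and CSAA means were 0.497, 1.26 and 0.908 CPM at weeks 4, 8 and 12. At week 8 the diet effect was a log2 FC of 0.83 that missed the threshold (edgeR, adj. p value 0.0912), and at week 12 it was 4.54 (edgeR, adj. p value 5.12e-12). The step differed from that on CSAA by 3.71 ± 0.65 (SE, edgeR, adj. p value 1.73e-05).

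ENSRNOG00000004341, which passed the filter only through CDAA week 8 and week 12, ranged from 0.458 to 2.00 CPM (median 0.943) at week 8 and from 2.38 to 10.1 CPM (median 7.10) at week 12, without overlap. Animals 1102, 1103 and 1104 lay between 2.38 and 3.71 CPM and the other 5 animals of week 12 between 7.01 and 10.1 CPM. The log2 FC was 2.504 ± 0.36 (SE, edgeR, adj. p value 1.61e-05), and 2.13 without animals 1105 to 1108 (edgeR, adj. p value 0.014). This gene was already higher on CDAA than on CSAA at week 4, with a log2 FC of 1.88, and at week 8, with 1.56, before 4.33 at week 12. CSAA means stayed between 0.163 and 0.352 CPM, and the interaction was 2.77 ± 0.69 (SE, edgeR, adj. p value 0.00156).

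Among the 6 genes called lower with a mean of at least 5 CPM at week 8, ENSRNOG00000008591 fell the most. It ranged from 36.6 to 69.8 CPM (median 58.9) at week 8 and from 13.7 to 53.3 CPM (median 21.0) at week 12, and animal 1103 (53.3 CPM) was the only week 12 animal within the week 8 range. The log2 FC was -1.11 ± 0.16 (SE, edgeR, adj. p value 1.61e-05), and -0.79 without animals 1105 to 1108 (edgeR, adj. p value 0.0351). At week 4 the diets gave close means, 87.4 ± 8.66 CPM on CDAA and 83.8 ± 9.41 CPM on CSAA (SD, n = 8 each). On CSAA the mean went to 74.0 CPM at week 8 and 59.9 CPM at week 12, a log2 FC of -0.31 that missed the threshold (edgeR, adj. p value 0.126), and the interaction of -0.81 had an adj. p value of 0.00524 in edgeR but not the minimum fold.

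ENSRNOG00000014448 fell on both diets. On CDAA it ranged from 13.7 to 23.9 CPM (median 17.5) at week 8 and from 3.99 to 14.7 CPM (median 8.13) at week 12, where animal 1105 (14.7 CPM) overlapped with week 8. The log2 FC was -1.09 ± 0.22 (SE, edgeR, adj. p value 0.00105) on CDAA and -1.001 ± 0.22 (SE, edgeR, adj. p value 0.000202) on CSAA, where the mean went from 33.1 to 16.5 CPM. The interaction was -0.086 ± 0.31 (SE, edgeR, adj. p value 0.862). Its lowest week 12 values were in animals 1102, 1103 and 1104, between 3.99 and 5.84 CPM, and without animals 1105 to 1108 the log2 FC was -1.43 (edgeR, adj. p value 0.0107).

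**Figure D5:**
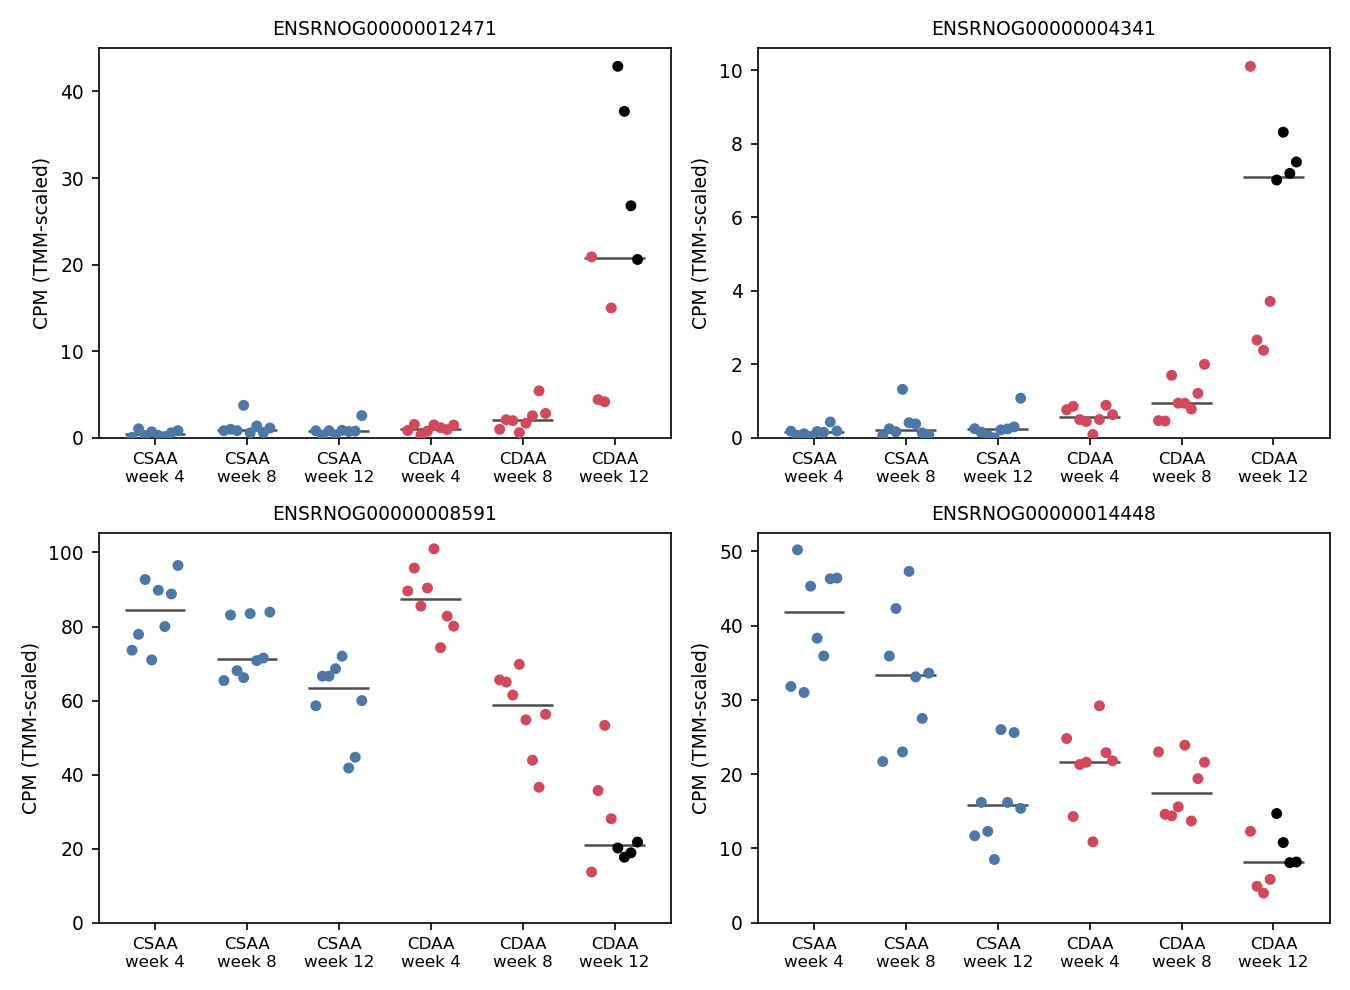
CPM (TMM-scaled) of 4 identifiers in all 48 animals, 8 per group, with lines at the medians and animals 1105 to 1108 in black. Both genes on top rise at CDAA week 12 with a spread from 4.17 to 42.9 CPM and from 2.38 to 10.1 CPM, and of both genes below, which fall, the right one also falls on CSAA.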

How the data were processed

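The deposited counts are raw reads per Ensembl gene, from alignments by the authors with STAR (genome build Rnor_6.0) that were counted with featureCounts. RPKM values, also deposited by the authors and scaled to gene length, served for gene lengths (ratio of counts to RPKM) and for 1 alternative. Counts of all 48 animals were fitted with edgeR 4.0.16 in R 4.3.3 (TMM factors, quasi-likelihood test, a coefficient for each of the 6 groups). Of 32662 genes, 12756 reached 1 CPM (by library size, without TMM factors) in 5 or more of the 8 animals of some group and were tested. A call needed a log2 fold change of 1 or more in size and, after Benjamini-Hochberg adjustment, p under 0.01. Values per animal were compared by exact permutation over 12870 splits. On simulated counts of 12756 genes for this step, changes were set only in genes with a mean of at least 1 CPM at CDAA week 8. Of these, edgeR recovered 94 of 100 genes changed by 1.5 (log2) and 99 of 100 changed by 2.5. It made 0 false calls there, but 246 where a gene length trend was simulated and not removed and 0 where it was removed. The simulated trend was much steeper than the difference between the measured slopes of both weeks (0.214 and 0.233). Simulated animals were drawn independently, so the run does not cover the likeness among animals 1105 to 1108. Nor does it cover recovery of genes under 1 CPM at week 8, where 82 of the 170 rises lay. Alternatives were limma-voom (limma 3.58.1), which the authors used, DESeq2 1.42.0, other scalings and filters, RPKM, and animals left out. The filter on other groups and the fits without animals 1105 to 1108 and 1101 to 1104 (for the interaction too, and for values per animal the former) were added after seeing the data. Members, groups of genes and lists were chosen with earlier results of these data known. At most 2 rising and 2 falling identifiers were named, those with the largest change among called genes with a mean of at least 5 CPM in the higher group. Planned gene lists, cell type markers and gene sequences were not used here, since the tables do not pair identifiers with names. The paper reports that libraries were pooled before sequencing, but the labels name no pool or batch, so none was modelled. Each animal had 13619274 reads or more on genes, and counting error weighs most near 1 CPM.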

Additional observations from a re-analysis of the deposited data

Results flagged for a closer look

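The TMM factor of animal 1102 (1.266) lay apart from the other 7 CDAA animals of week 12 (1.354 to 1.429), by 0.542 of the range of the group. The level of ENSRNOG00000012471 in animal 707 (5.43 CPM) lay apart from the other 7 CDAA animals of week 8 (0.611 to 2.82 CPM), also by 0.542 of the range. Of 22 groups of values checked in this way, chance gives about 1.1, so 2 are near that number. The step from week 8 to week 12 differed between the diets in 372 genes that were higher and 139 that were lower on CDAA than on CSAA (edgeR interaction), with the interaction of ENSRNOG00000012471 at 3.71 and that of ENSRNOG00000004341 at 2.77 on the log2 scale.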

How the results depend on the processing

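For the step from week 8 to week 12 on CDAA, the 183 calls (170 higher, 13 lower) became 63 (51 higher) with the filter set on other groups, 71 (69 higher, 2 lower) with limma on log2(RPKM + 1), where the pseudocount of 1 lowers the fold changes of scarce genes, 2 (2 higher, 0 lower) in a test against a log2 fold change of 1 (edgeR, 157 genes at an unadjusted p under 0.05), 24 (24 higher, 0 lower) without animals 1106 to 1108 (edgeR, 1515 genes at an unadjusted p under 0.05) and 2 (2 higher, 0 lower) without animals 1105 to 1108 (edgeR, 1171 genes at an unadjusted p under 0.05). The falls numbered 21 with DESeq2, 6 with library size alone, 23 without animal 1102 and 27 without animals 1101 to 1104. The causes were not tested. Leaving out 1 animal at a time gave 133 to 243 calls, with 125 to 220 higher and 7 to 23 lower, and 1102 was the animal whose removal gave the most. With limma-voom 235 were higher and 17 lower. Without a minimum fold, the 236 rises and 118 falls became 569 and 371 in a fit of the 16 CDAA animals alone, 443 and 167 with limma-voom, and 761 and 99 with RPKM. The step on CSAA gave 355 calls, 214 with the gene length trend removed, 27 in the test against a log2 fold change of 1, and 317 to 508 with 1 animal left out. The interaction gave 511 calls, 6 in that test, 270 without animals 1105 to 1108, and 437 to 719 with 1 animal left out. The 4 named genes kept their direction in every alternative that gave them a value, and ENSRNOG00000004341 had none with the filter set on other groups. No paired analysis was possible because each animal has a number of its own and was sampled once. Depth limits the scarce genes, with a median of 22.3 reads per animal at week 8 over the 170 rises.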

Other observations

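Over the 12035 genes that pass the filter through another group, the spread between the 8 animals of week 12 was larger in genes under 1 CPM on CSAA at week 4 (median SD of log2 CPM 0.355) than in those at 100 CPM or more (0.137). Among the 170 genes that rose, the median SD was 0.199 in animals 1105 to 1108 and 0.688 in animals 1101 to 1104. These animals served to choose the 170 genes, so the contrast is a description. Over all genes tested the median SD was 0.106 and 0.169.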
